A study of Mus musculus with 28 samples.

Results

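Astrocytes sorted from mice with and without amyloid were compared in 13 RNA sequencing libraries, out of 28 in the series, with 1 library per mouse. The libraries were chosen by their labels: the 9 came from mice with the APPPS1 transgenes and the 4 from amyloid-free mice, and both sides held mice with and without Cre. Every mouse was APOE4fl/fl, with loxP-flanked human APOE4 in place of mouse Apoe on both alleles. Of the APPPS1 mice, 774, 469, 779, 447 and 439 lacked Cre, and 475, 460, 458 and 443 carried ALDH1L1-CreERT, a Cre made active by tamoxifen and driven by the promoter of the astrocyte gene Aldh1l1. The amyloid-free mice were 465 and 759 without Cre, and 26 and 22 with it. All of them, Cre-negative mice too, were given 2 intraperitoneal doses of 100 mg/kg tamoxifen at 3.8 months of age. Cells were sorted 10 days later from cortex, hippocampus and thalamus with an antibody against the astrocyte surface antigen ACSA-2. The series text counts fewer APPPS1 mice in each Cre state than the sample labels do, and the labels were followed. The comparison asks how astrocytes differ between a brain with amyloid and one without, in both Cre states.

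APPPS1 mice express mutant human APP in neurons and form amyloid-beta plaques at a young age. Astrocytes near plaques become reactive: they build more of the intermediate filament protein GFAP and turn on secreted protease inhibitors, complement components and genes of the interferon response. Type I interferon acts through STAT factors and IRF9, which together bind a short DNA element in the promoters of their target genes. Astrocytes also make most of the brain's apolipoprotein E and cholesterol, so both genes of reactivity and genes of lipid supply were followed.

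The labels were checked first. Total counts per library ran from 36531465 to 59238523, and levels below are CPM, counts scaled to a common total of mouse gene counts with TMM between libraries. On the unscaled CPM of the 13 libraries, the astrocyte gene Aldh1l1 lay between 303 and 586 and the astrocyte water channel Aqp4 between 618 and 1038. The microglial receptor P2ry12 lay between 10.5 and 18.6, and the microglial gene Tmem119 between 0 and 3.54. The library labelled astrocyte of a further APPPS1 Cre-positive mouse, 459, had 1.74 CPM of Aldh1l1 and 7290 CPM of P2ry12. It holds the genes of the other sort, so it was left out, and each main result is also given with it. Human APP, from the transgene, had 2 to 117 counts in the 9 APPPS1 libraries and 0 to 2 in the 4 amyloid-free ones. The 2 counts of APPPS1 mouse 779 did not exceed the highest amyloid-free library, so in this sort the transgene marks 8 of the 9. The difference in CPM of human APP did not pass an exact two-sided permutation test within Cre states (p = 0.0857, adjusted p = 0.257 over 3 human genes, smallest possible p = 0.00317). Human APOE ran from 507 to 827 CPM in the APPPS1 Cre-positive libraries and from 1273 to 1864 CPM in the APPPS1 Cre-negative ones. In amyloid-free mice it was 1411 and 1052 CPM without Cre and 926 and 521 CPM with it, so all Cre-positive libraries lay below all Cre-negative ones. Between APPPS1 and amyloid-free mice within Cre states, human APOE did not pass (exact permutation p = 0.492, adjusted p = 0.524).

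Averaged over both Cre states, no single gene passed. With edgeR's quasi-likelihood test over 20052 genes, 0 genes (0.0%) had an adjusted p under 0.05. At an unadjusted p under 0.05 there were 1409 genes, 1042 higher in APPPS1 mice (5.2% of all genes tested) and 367 lower (1.83%). The DESeq2 test on the same libraries called 254 genes, 237 of them higher, while limma voom with sample weights called 0. Beside Gfap and Ifit3, the lowest p belonged to Tm4sf1, Oas1a, Pmaip1 and Fbln7. Fbln7, a secreted cell adhesion protein, ran from 5.12 to 10.6 CPM in APPPS1 mice and was 8.15, 5.55, 1.29 and 1.34 CPM in mice 465, 759, 26 and 22, so the low values were those of the amyloid-free Cre-positive mice. The values below therefore describe these mice, and a log2 change without a stated call did not pass the adjusted threshold. The median log2 change of all genes tested was 0.04, with 56.3% of genes above 0. With mouse 459 kept as labelled, 0 genes were called and 656 had an unadjusted p under 0.05. As these are bulk sorts, fewer cells of a type and less RNA per cell cannot be told apart.

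Gfap, the intermediate filament gene that defines reactive astrocytes (GRCm38 chr11:102887336-102900912), had the lowest p of all genes. Its level in APPPS1 astrocytes had a lowest value of 121, a median of 199 and a highest value of 259 CPM. The amyloid-free libraries of mice 465, 759, 26 and 22 had 80.3, 74.5, 70.3 and 76.3 CPM. All 9 APPPS1 libraries thus lay above all 4 amyloid-free ones, and the amyloid-free values sat close together in both Cre states. The means were 193 ± 46.2 CPM (SD, n = 9) and 75.3 ± 4.17 CPM (SD, n = 4). The log2 change was 1.35 ± 0.19 (SE), with an unadjusted p of 8.49e-06 and an adjusted p of 0.168 over all genes. The log2 change was 1.36 in Cre-negative mice and 1.34 ± 0.28 in Cre-positive mice, where Gfap rose with an adjusted p of 0.048. The difference between the Cre states was -0.02 ± 0.36 on the log2 scale (adjusted p = 0.994). With mouse 459 kept as labelled, the averaged log2 change of Gfap was 1.18. For Gfap, averaged over Cre states, the adjusted p ran from 1.08e-08 with DESeq2 to 1.0 with mouse 459 kept or without mice 22 and 26, where the Cre-negative mice alone inform it, and was 0.0553 with voom.

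Serpina3n, a secreted serine protease inhibitor of reactive astrocytes, ran from 19.3 through a median of 26.4 to 39.0 CPM in APPPS1 mice. It was 8.42, 12.97, 19.6 and 12.9 CPM in mice 465, 759, 26 and 22. Only the library of mouse 26 reached into the APPPS1 range. The averaged log2 change was 1.06 ± 0.23 (adjusted p = 0.204), with 1.47 in Cre-negative and 0.65 in Cre-positive mice. C4b, the complement component that tags material for uptake, ran from 39.7 through 97.4 to 139 CPM in APPPS1 mice and was 35.9, 46.4, 55.1 and 44.3 CPM in mice 465, 759, 26 and 22. One APPPS1 Cre-negative library lay inside the amyloid-free range and the other 8 lay above it. The log2 change of C4b was 1.03 ± 0.27 (adjusted p = 0.361), with 1.07 and 0.99 in the Cre-negative and Cre-positive mice.

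**Figure D1:**
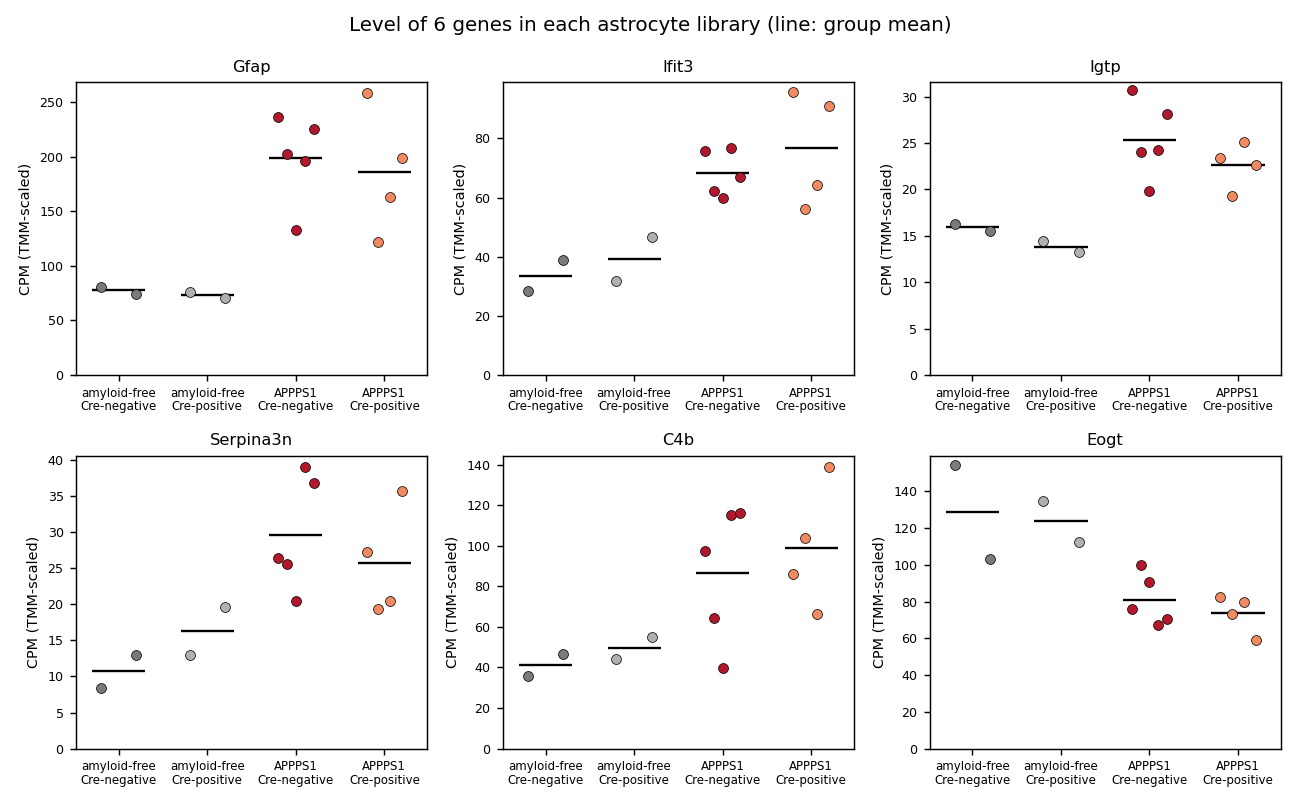
Level in CPM (vertical axes, from 0) of Gfap, Ifit3, Igtp, Serpina3n, C4b and Eogt in each astrocyte library, by amyloid and Cre group. Points are mice and lines are group means; for Gfap, the 9 APPPS1 points lie between 121 and 259 CPM and the 4 amyloid-free points between 70.3 and 80.3 CPM, and only Eogt is lower in APPPS1 mice.

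Genes of the type I interferon response lay higher in APPPS1 astrocytes. All 28 members tested had an averaged log2 change above 0, with a median of 0.74 against 0.04 over all genes. At an unadjusted p under 0.05, 18 of the 28 were higher and 0 lower, against 5.2% and 1.83% of all genes. The median was 0.29 in Cre-negative mice, with 21 of 28 above 0, and 1.05 in Cre-positive mice, with 27 of 28 above 0. In Cre-negative mice 3 of 28 were higher at that threshold, against 2.44% of all genes. In Cre-positive mice 13 of 28 were, against 7.4% of all genes, with only mice 26 and 22 on the other side. The list's mean level ran from 2.91 to 3.72 log2 CPM in APPPS1 mice and was 2.35, 3.47, 2.47 and 1.71 log2 CPM in mice 465, 759, 26 and 22, so the amyloid-free mouse 759 lay inside the APPPS1 range. Mouse 759 was also the highest and mouse 22 the lowest amyloid-free library for endothelial markers, whose part in these values was not tested.

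Ifit3, which encodes an interferon-induced RNA-binding antiviral protein (chr19:34583531-34588731), had the lowest p of the list (4.78e-05, unadjusted). Its level in APPPS1 mice had a lowest value of 56.3, a median of 67.0 and a highest value of 95.6 CPM. In mice 465, 759, 26 and 22 it was 28.4, 38.8, 46.5 and 31.9 CPM. The groups did not overlap. Its log2 change was 0.996 ± 0.17 (adjusted p = 0.168), with 1.02 in Cre-negative and 0.97 in Cre-positive mice and a difference between them of -0.05. Igtp, an interferon-inducible GTPase of host defence (chr11:58199556-58207591), ran from 19.3 to 30.7 CPM in APPPS1 mice and from 13.2 to 16.2 CPM in amyloid-free mice, again without overlap. Its log2 change was 0.69 ± 0.14, with 0.67 and 0.71 in the Cre-negative and Cre-positive mice. Igtp was not a member of the interferon list and is described with it for its known regulation.

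Other members of the interferon list varied more with Cre state. Ifit1, of the same family as Ifit3, had a log2 change of 1.28 averaged, 0.78 in Cre-negative and 1.78 in Cre-positive mice. Usp18, the protease that removes ISG15 and damps interferon signalling, ran from 11.9 to 30.7 CPM in APPPS1 mice and was 7.03, 20.3, 6.02 and 3.65 CPM in mice 465, 759, 26 and 22 (log2 change 1.43, 0.64 and 2.21). Among the factors that carry the signal, Irf9 had an averaged log2 change of 0.68, Irf7 0.85 and Stat2 0.16. Of these 3 genes, Irf9 and Irf7 had an unadjusted p under 0.05 (0.00566 and 0.0213).

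The promoters of the interferon genes without overlap between groups are shown because their shared response element can be read in them. Each is the 250 bases before the RefSeq start on GRCm38.p6, 5′ to 3′ on the gene's strand, and capitals mark GAAANNGAAA on either strand, the core of the interferon-stimulated response element. Ifit1 is added as the neighbour of Ifit3 in its family, and Gfap as the gene of lowest p outside the interferon list.
Ifit3, chr19:34583279-34583528, plus strand: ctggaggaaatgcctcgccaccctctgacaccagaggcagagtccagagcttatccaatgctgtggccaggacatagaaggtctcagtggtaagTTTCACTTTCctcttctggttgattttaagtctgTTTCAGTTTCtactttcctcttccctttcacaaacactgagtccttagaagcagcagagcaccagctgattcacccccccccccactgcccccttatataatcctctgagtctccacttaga
Ifit1, chr19:34640639-34640888, plus strand: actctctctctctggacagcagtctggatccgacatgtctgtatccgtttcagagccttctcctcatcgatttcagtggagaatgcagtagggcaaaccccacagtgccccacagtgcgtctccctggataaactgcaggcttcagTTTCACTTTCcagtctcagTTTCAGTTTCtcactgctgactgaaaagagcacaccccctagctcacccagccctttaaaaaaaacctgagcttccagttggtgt
Igtp, chr11:58199306-58199555, plus strand: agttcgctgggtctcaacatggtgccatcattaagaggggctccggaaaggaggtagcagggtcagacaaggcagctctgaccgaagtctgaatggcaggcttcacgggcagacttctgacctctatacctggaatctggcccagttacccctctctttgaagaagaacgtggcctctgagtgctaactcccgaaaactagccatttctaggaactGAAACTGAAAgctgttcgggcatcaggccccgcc
Gfap, chr11:102897201-102897450, minus strand: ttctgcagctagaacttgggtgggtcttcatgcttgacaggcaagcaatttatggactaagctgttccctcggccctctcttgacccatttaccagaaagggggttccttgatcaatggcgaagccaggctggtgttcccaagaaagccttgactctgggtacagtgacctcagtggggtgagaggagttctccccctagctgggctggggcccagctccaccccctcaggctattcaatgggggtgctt
Ifit3 holds 2 matches, whose first bases lie 156 and 122 bases before the start. Ifit1 holds 2, at 104 and 85 bases, and Igtp holds 1, at 34 bases. In the Gfap window, which lies inside the GENCODE span of the gene, these letters do not occur. Over all RefSeq promoters of the same length, 978 of 32851 (2.98%) held GAAANNGAAA on either strand. Of the 28 interferon list genes, 21 were found in the promoter table and 10 of these (47.6%) held it in at least 1 of their promoters: Bst2, Gbp3, Ifit1, Ifit3, Ifit3b, Isg15, Oas1a, Rsad2, Stat2 and Trim30a. The site TTCNNNGAA, a STAT dimer sequence, was in 2306 of all promoters (7.02%) and in 3 of the 21 genes (14.3%). For both motifs the list shares count genes, and the shares over all count promoters. The 21 genes had 26 promoters, so these shares are not like for like. Igtp holds 1 copy of TTCNNNGAA, at 45 bases and not overlapping its GAAANNGAAA. These matches describe letters and were not tested for binding.

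Few genes separated all APPPS1 libraries from all amyloid-free ones. In 11 genes (0.0549% of those tested) every APPPS1 library was higher, and in 17 genes (0.0848%) every one was lower. The 11 were Gfap, Ifit3, Mcub, Igtp, Zbtb22, Slitrk4, Nek2, Azin2, Sobp, Nmb and Gm11930. Zbtb22, a zinc finger protein (chr17:33915904-33919325), ran from 7.27 to 12.95 CPM in APPPS1 mice and from 5.49 to 5.86 CPM in amyloid-free mice, a log2 change of 0.78. Azin2, an antizyme inhibitor of polyamine metabolism, ran from 4.55 to 7.99 CPM against 2.56 to 4.28 CPM (log2 change 0.83). Mcub, the inhibitory subunit of the mitochondrial calcium uniporter, was scarce, with 0.521 to 2.10 CPM against 0 to 0.352 CPM, so no firm size can be given to its change. Slitrk4, Nek2 and Gm11930 were scarce as well, with highest values of 1.68, 2.30 and 0.464 CPM.

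Of the 17 genes lower in every APPPS1 library, Eogt had the lowest p. Eogt adds N-acetylglucosamine to the EGF repeats of secreted and membrane proteins such as Notch receptors (chr6:97110024-97149182). It ran from 59.0 to 100.2 CPM in APPPS1 mice and from 103 to 155 CPM in amyloid-free mice. The log2 change of Eogt was -0.71 ± 0.14, with -0.67 in Cre-negative and -0.75 in Cre-positive mice. Stam, an endosomal sorting adaptor, ran from 44.2 to 67.6 CPM against 71.3 to 75.9 CPM, a log2 change of -0.38. Lifr, the receptor subunit for leukaemia inhibitory factor (chr15:7090614-7197489), ran from 117 to 196 CPM against 202 to 240 CPM, a log2 change of -0.34. Gca, a calcium-binding protein, and Dock1, an activator of the GTPase Rac used in engulfment, had log2 changes of -0.46 and -0.24. The others included Cdh16, Gm13684, Gm9311, Rab3gap2, Dmrta2, Sec31a, Yy1, mt-Tl1, Gm15890, Gm10062 and Gm15591. The non-overlap of these 28 genes was found by searching all genes, and their adjusted p-values in the averaged test were at least 0.168. How many genes would separate by chance was not tested, so non-overlap alone does not show a change.

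The lists of reactive astrocyte genes leaned the same way as Gfap. All 13 pan-reactive genes had an averaged log2 change above 0, with a median of 0.96. At an unadjusted p under 0.05, 4 of 13 were higher, against 5.2% of all genes. Beside Gfap, Vim and Serpina3n the fourth was Cxcl10, an interferon-induced chemokine, with a log2 change of 1.59. Of the A1-type list 11 of 12 were above 0, with a median of 0.90, and of the A2-type list all 12 tested, with a median of 1.11. These medians were lower in Cre-negative than in Cre-positive mice, a difference not tested for the lists. Pan-reactive genes had a median of 0.31 in Cre-negative mice, with 8 of 13 above 0, and 1.23 in Cre-positive mice, with 11 of 13 above 0. For the A1-type list the medians were 0.21 and 1.37, and for the A2-type list 0.83 and 1.41, the last being 1.09 with genes at 0 in a group at their bound. The mean level of the pan-reactive list was 1.75 and 1.76 log2 CPM in mice 26 and 22, below every other library (2.16 to 3.88). The same pair was lowest in ependymal and endothelial markers, whose part was not tested. H2-T23, a non-classical MHC class I gene of the A1-type list, ran from 8.55 to 28.03 CPM in APPPS1 mice and was 7.63, 19.6, 4.12 and 2.83 CPM in mice 465, 759, 26 and 22. Serping1, the inhibitor of complement C1, was 7.84 to 15.2 CPM against 3.69, 12.5, 3.91 and 3.37 CPM. In both genes mouse 759 lay inside the APPPS1 range and the other 3 amyloid-free mice below it.

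The disease-associated astrocyte list, of genes reported higher near plaques, had 20 of 24 members above 0 but a median of 0.17. Its 7 members with an unadjusted p under 0.05 were Gfap, Vim, Serpina3n, C4b, Id3, Igfbp5 and Fxyd1, all higher, against 5.2% of all genes. Id3, a helix-loop-helix inhibitor downstream of BMP signals, had a log2 change of 0.44, and Igfbp5, a binding protein for insulin-like growth factors, 0.42. Other members lay near 0: mouse Apoe had a log2 change of 0.11, Clu 0.12, Ctsb 0.06 and Aqp4 -0.07. In the antigen presentation list 18 of 19 members were above 0, with a median of 0.58. At an unadjusted p under 0.05, 5 were higher, against 5.2% of all genes. The 5 were H2-T23, Psmb8, H2-K1, Tap1 and B2m, which cut, carry and display peptides for MHC class I. In the complement list 13 of 17 were above 0, with a median of 0.25; beside C4b, Serping1 had a log2 change of 0.93.

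Genes of normal astrocyte function had averaged medians near 0, but shifts of opposite sign in the Cre states. The astrocyte identity list had 9 of 18 members above 0 and a median of -0.01 on average. In Cre-negative mice 17 of 18 were above 0 (median 0.19), and in Cre-positive mice 14 of 18 were below 0 (median -0.27). In the latter, 6 of 18 were lower at an unadjusted p under 0.05, against 4.28% of all genes. The mean level of the list ran from 10.25 to 10.67 log2 CPM in APPPS1 mice against 10.5, 10.09, 10.69 and 10.64 log2 CPM in mice 465, 759, 26 and 22. The list of transmitter uptake, potassium, water and gap junction genes had an averaged median of 0.03. In Cre-negative mice 23 of 28 were above 0 (median 0.16), and in Cre-positive mice 23 of 28 were below 0 (median -0.17). Mouse 759 was the lowest library for this list too (7.77 log2 CPM). Mouse 465, at 8.28, lay inside the APPPS1 Cre-negative range of 8.14 to 8.29 log2 CPM. For synapse-forming and pruning factors the averaged median was -0.01, with 19 of 28 above 0 in Cre-negative mice and 21 of 28 below 0 in Cre-positive mice. The other averaged medians were, for lipid transport 0.03, amyloid processing and clearance 0.03, and lysosome 0.08. Among synapse factors, Chrdl1, a secreted BMP antagonist that matures synaptic receptors, ran from 88.1 through 123 to 213 CPM in APPPS1 mice and was 224, 171, 233 and 225 CPM in mice 465, 759, 26 and 22. The averaged log2 change of Chrdl1 was -0.66, with -0.23 in Cre-negative and -1.10 in Cre-positive mice (adjusted p = 0.05096). Grm3, the astrocytic metabotropic glutamate receptor, had a log2 change of -0.36. Npc1, which exports cholesterol from lysosomes, ran from 146 to 204 CPM against 195 to 206 CPM, with a log2 change of -0.24 in both Cre states.

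Within Cre-positive mice, cholesterol synthesis genes lay lower in APPPS1 than in amyloid-free astrocytes. Most members of the identity, transmitter uptake and synapse lists did so too, and the lists were not tested against each other. The mean level of the cholesterol list ran from 5.70 to 5.97 log2 CPM in APPPS1 Cre-positive mice and from 5.65 to 6.77 in APPPS1 Cre-negative mice. In mice 465, 759, 26 and 22 the list stood at 6.61, 6.02, 6.62 and 6.59 log2 CPM. Only 2 of its 25 members had an averaged log2 change above 0, and the median was -0.31. At an unadjusted p under 0.05, 5 were lower and 0 higher, against 1.83% and 5.2% of all genes. In Cre-negative mice the median was 0.04. In Cre-positive mice it was -0.70, with 24 of 25 below 0 and 15 lower at an unadjusted p under 0.05, against 4.28% of all genes lower and 7.4% higher at that threshold. With edgeR none of the 25 passed the adjusted test, nor did Hmgcs1 for the difference between Cre states (adjusted p = 0.298). Hmgcs1, an early enzyme of the pathway, ran from 183 to 255 CPM in the APPPS1 Cre-positive mice and from 223 to 531 CPM in the APPPS1 Cre-negative ones. In mice 465, 759, 26 and 22 Hmgcs1 was 485, 371, 464 and 458 CPM, so every APPPS1 Cre-positive library lay below all 4. Its log2 change was -1.07 in Cre-positive and -0.02 in Cre-negative mice. Srebf2, the transcription factor that drives the pathway, had -0.67 and 0.04, and Insig1, which holds that factor back when sterols are plentiful, -0.93 and -0.04.

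**Figure D2:**
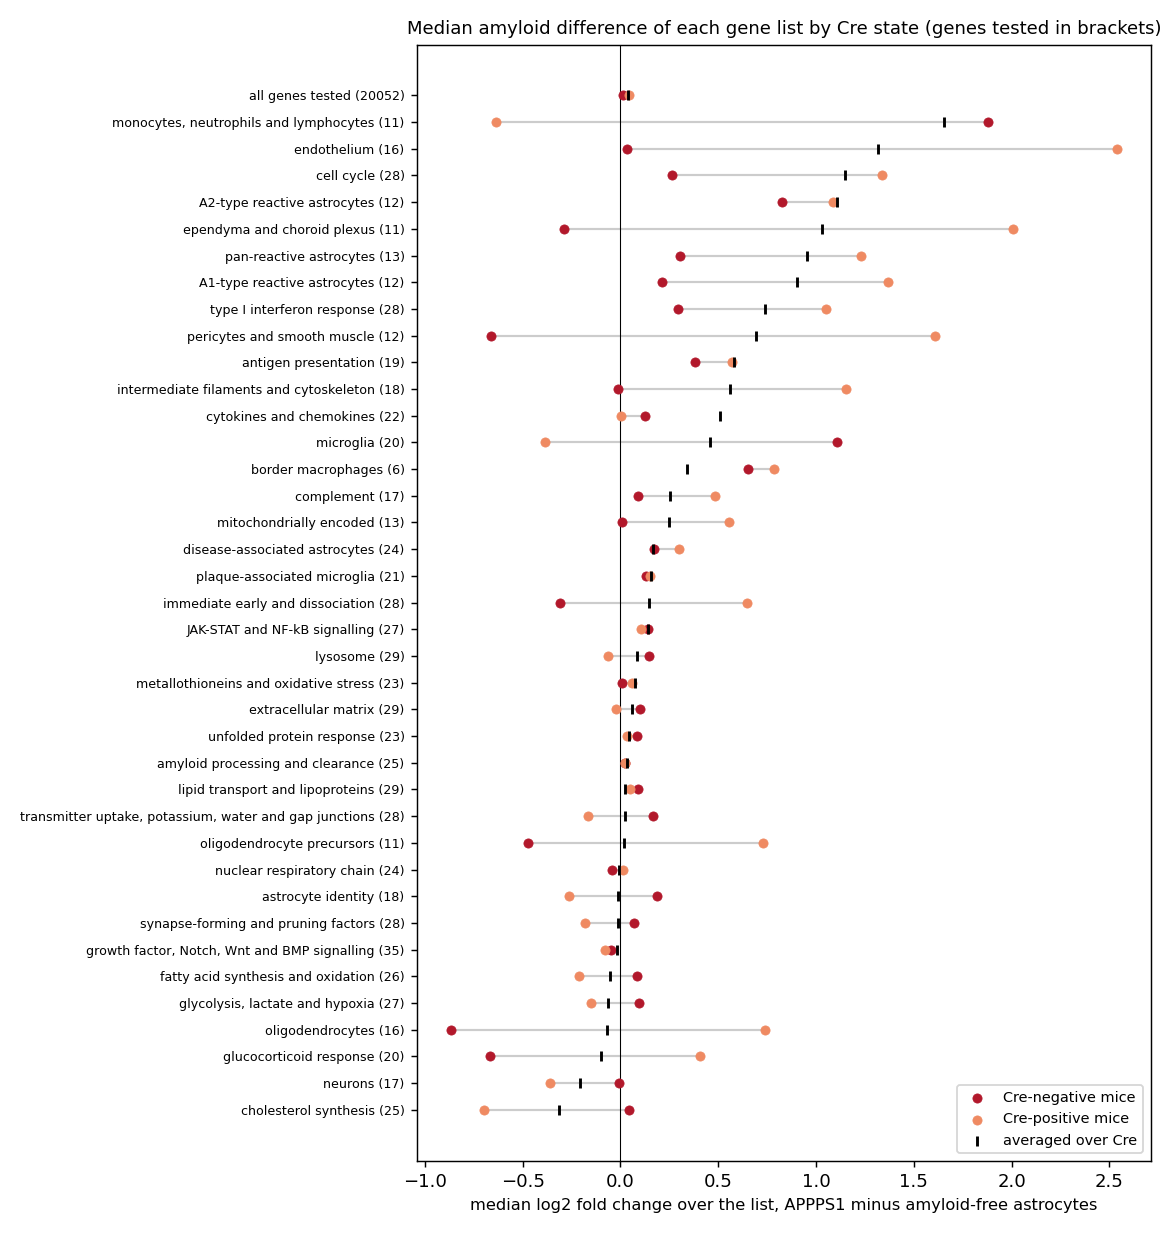
Median log2 change, APPPS1 minus amyloid-free, of the tested members of 38 gene lists and of all genes (rows), for Cre-negative (dark points) and Cre-positive mice (light points) and averaged over Cre (ticks); genes at 0 in a group enter at their bound. The endothelium median is 0.04 in Cre-negative and 2.54 in Cre-positive mice, the type I interferon median 0.29 and 1.05, and the cholesterol synthesis median 0.04 and -0.70.

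In Cre-positive mice alone, 133 genes passed. Of these 116 (0.578% of the genes tested) rose in APPPS1 astrocytes and 17 (0.0848%) fell, but only 2 amyloid-free libraries, of mice 26 and 22, stand on the other side. Among the lists, 5 of 11 ependyma and choroid plexus markers rose, 3 of 18 cytoskeleton genes (Gfap, Vim and Anxa2), and 2 of 28 interferon genes (Oas1a and Ifitm3). None of the 17 genes that fell belonged to a list. They included Rorb, a nuclear receptor, with a log2 change of -0.94, and Gpam, the acyltransferase that starts glycerolipid synthesis, with -0.95, both chosen after their values were seen. Leaving out mouse 26 or mouse 22 gave 0 called genes each time, with 1493 and 1474 at an unadjusted p under 0.05. Without mouse 469, 458 or 439 the count was 79, 87 or 277. With mouse 459 kept as labelled the count was also 0, with 1292 at an unadjusted p under 0.05. The DESeq2 test called 850 genes in this comparison and limma voom 253.

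Vim, the vimentin filament gene, ran from 87.6 to 96.2 CPM in APPPS1 Cre-negative mice and from 106 to 160 CPM in APPPS1 Cre-positive mice. In mice 465, 759, 26 and 22 it was 115, 81.9, 40.0 and 49.3 CPM. Mice 26 and 22 were the lowest of all 13, and the Cre-negative amyloid-free mice enclosed the APPPS1 Cre-negative range. Vim rose in Cre-positive mice by a log2 change of 1.44 ± 0.20 (adjusted p = 0.0143), against -0.12 in Cre-negative mice. Tm4sf1, a membrane protein of the A2-type list that endothelium also expresses, ran from 69.9 through 81.0 to 147 CPM in APPPS1 mice. It was 93.0, 138, 18.2 and 15.2 CPM in mice 465, 759, 26 and 22. The log2 change of Tm4sf1 was 2.63 in Cre-positive mice (adjusted p = 0.00659) and -0.60 in Cre-negative mice.

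Markers of ependyma and endothelium were lowest in mice 26 and 22, while mice 465 and 759 lay inside the APPPS1 range. The part of these cells in the results was not tested. The mean level of 11 ependyma and choroid plexus markers ran from 3.06 to 4.30 log2 CPM in APPPS1 mice and was 4.09, 3.79, 2.68 and 2.25 in mice 465, 759, 26 and 22. For 16 endothelial markers it ran from 3.99 to 6.33 against 4.42, 5.90, 3.25 and 3.05 log2 CPM. In Cre-positive mice the medians were log2 2.01 for ependyma and 2.54 for endothelium, against -0.29 and 0.04 in Cre-negative mice. All 16 endothelial markers were higher in Cre-positive mice at an unadjusted p under 0.05, against 7.4% of all genes, though 0 passed the adjusted test. Ependymal markers that rose included Tmem212, a gene of ciliated ependyma, with 72.2 to 187 CPM in APPPS1 Cre-positive mice against 13.7 and 10.9 CPM in mice 26 and 22, and 106 and 86.2 CPM in mice 465 and 759. Folr1, the folate receptor of choroid plexus, had 7.67 to 11.1 CPM in APPPS1 Cre-positive mice against 1.82 and 1.02 CPM. Of 76 genes of motile cilium families, a group chosen after values were seen, 15 rose in Cre-positive mice, against 0.578% of all genes. With the mean of the ependymal markers added to the fit, 0 genes were called in Cre-positive mice, with 1483 at an unadjusted p under 0.05. Over 22 alternative fits, that one included, the log2 change in Cre-positive mice lay for Vim between 1.26 and 1.603, for Tm4sf1 between 2.29 and 2.77, and for Kcnmb1, a potassium channel subunit with 3.23 in the edgeR test above, between 2.69 and 3.45. Among ependyma list genes that rose, Tmem212 lay between 1.95 and 3.33, Folr1 between 1.76 and 3.24 and Ccdc153 between 1.49 and 3.01. Dynlrb2 lay between 1.63 and 2.80, and Rarres2 between 1.105 and 1.73. The edgeR values of all of them were, in this order, 3.16, 2.76, 2.87, 2.63 and 1.64. With a score of other cells' markers added, 48 genes were called, of which 43 were among the 133.

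**Figure D3:**
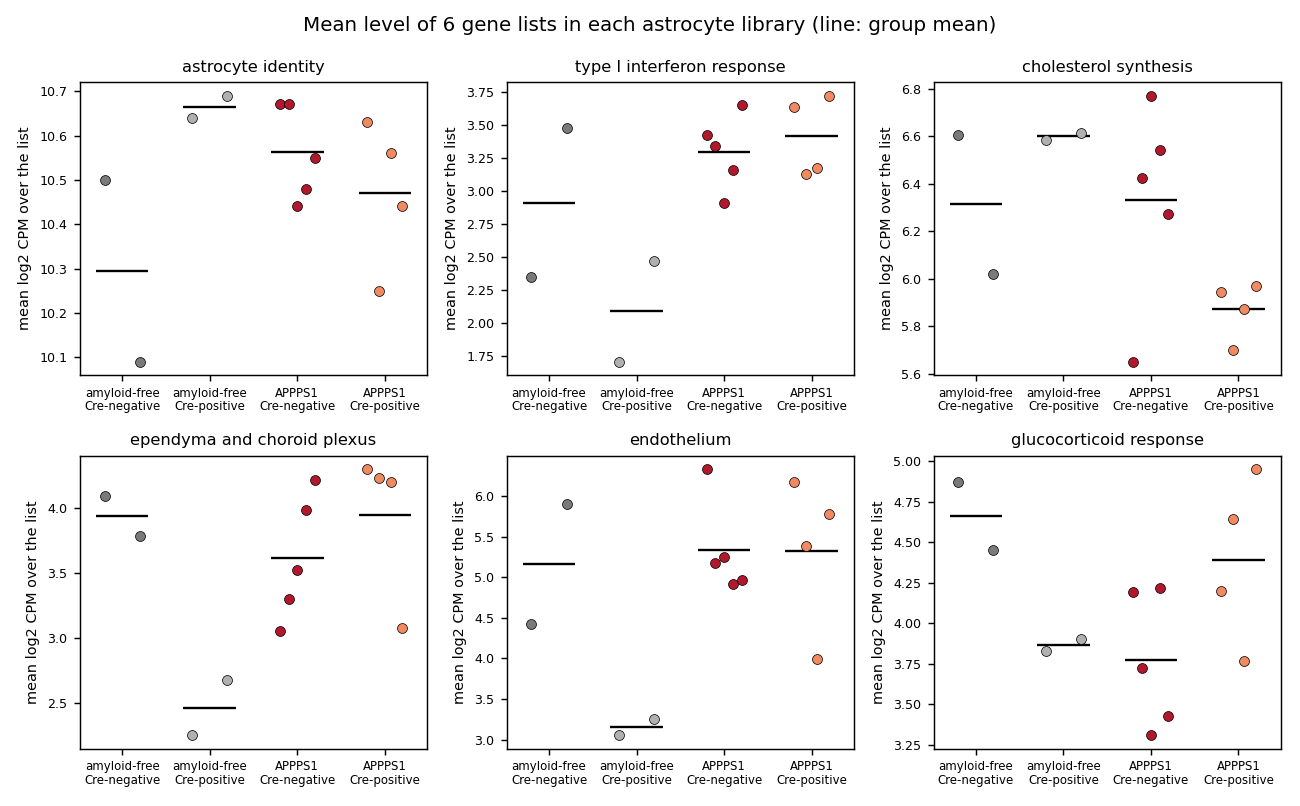
Mean log2 CPM of 6 gene lists (vertical axes, not from 0) in each astrocyte library, by amyloid and Cre group, with points for mice and lines for group means. The 2 amyloid-free Cre-positive points are the lowest for ependyma (2.68 and 2.25) and endothelium (3.25 and 3.05), while astrocyte identity stays between 10.09 and 10.69 in all 13 libraries.

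The named genes Oas1a and Pmaip1 had 0 counts in both amyloid-free Cre-positive libraries. Oas1a, an interferon-induced synthetase that activates RNase L, ran from 1.43 to 2.62 CPM in APPPS1 mice and was 0.647 and 5.88 CPM in mice 465 and 759. Against a floor of 3 counts over mice 26 and 22, it was at least 51.3-fold higher in APPPS1 Cre-positive mice. Pmaip1, the cell death gene Noxa, ran from 0.993 to 7.19 CPM in APPPS1 mice and was at least 136-fold higher in the Cre-positive ones on the same floor. Mice 465 and 759 had 1.78 and 6.86 CPM of Pmaip1, which spans most of the APPPS1 range. Ifitm3, an interferon-induced membrane protein that vascular cells also express, ran from 50.5 to 113 CPM in APPPS1 mice and was 44.3, 121, 14.02 and 10.4 CPM in mice 465, 759, 26 and 22. Its log2 change was 2.56 in Cre-positive mice (adjusted p = 0.0202) and -0.28 in Cre-negative mice.

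In Cre-negative mice 0 genes (0.0%) passed with edgeR, and 815 had an unadjusted p under 0.05, 489 higher (2.44%) and 326 lower (1.63%). The DESeq2 test called 19 genes and limma voom 0. With mouse 459 kept the edgeR count stayed at 0, with 231 at an unadjusted p under 0.05. The genes named for the lowest p in this contrast included Cit, a kinase of cell division and of the actin skeleton, with 79.0 to 119 CPM in APPPS1 Cre-negative mice against 49.9 and 56.7 CPM in mice 465 and 759. Chil1, a secreted chitinase-like protein of reactive astrocytes, had 180 to 198 CPM against 129 and 121 CPM. In mice 26 and 22 neither gene was low, at 107 and 120 CPM for Cit and at 208 and 206 CPM for Chil1. Sned1, an extracellular matrix protein, had 18.0 to 27.2 CPM against 10.5 and 10.3 CPM in mice 465 and 759, and 23.4 and 27.2 CPM in mice 26 and 22. Rasgrf1, an exchange factor for Ras, had 13.4 to 26.6 CPM against 7.87 and 8.95 CPM, and 22.8 and 20.5 CPM in mice 26 and 22.

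Genes of the glucocorticoid response lay lower in APPPS1 Cre-negative mice. Of 20 members 16 had a log2 change below 0, with a median of -0.67, and 8 were lower at an unadjusted p under 0.05, against 1.63% of all genes. In Cre-positive mice the median was 0.41, with 15 of 20 above 0. Sgk1, the serum- and glucocorticoid-regulated kinase, carried the widest values: 506 and 637 CPM in mice 465 and 759, 40.5 and 18.2 CPM in mice 26 and 22, and 36.4 through 87.7 to 300 CPM in APPPS1 mice. Mice 465 and 759 lay above every APPPS1 library, and mouse 22 lay below every one. The log2 change of Sgk1 was -2.80 in Cre-negative and 2.56 in Cre-positive mice. The list of immediate early genes, which cell dissociation also induces, leaned the same way. In Cre-negative mice 21 of 28 members were below 0 (median -0.31), and in Cre-positive mice 24 of 28 were above 0 (median 0.65). At an unadjusted p under 0.05, 10 of 28 were more positive in Cre-positive mice, against 1381 of all 20052 genes. The mean level of the immediate early list was highest of all 13 libraries in mouse 759 (3.99 log2 CPM) and lowest in mouse 22 (2.23 log2 CPM). Its part in the glucocorticoid values was not tested. The oligodendrocyte list had medians of -0.87 and 0.74 in the same contrasts, with all 16 members below 0 in Cre-negative and above 0 in Cre-positive mice.

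**Figure D4:**
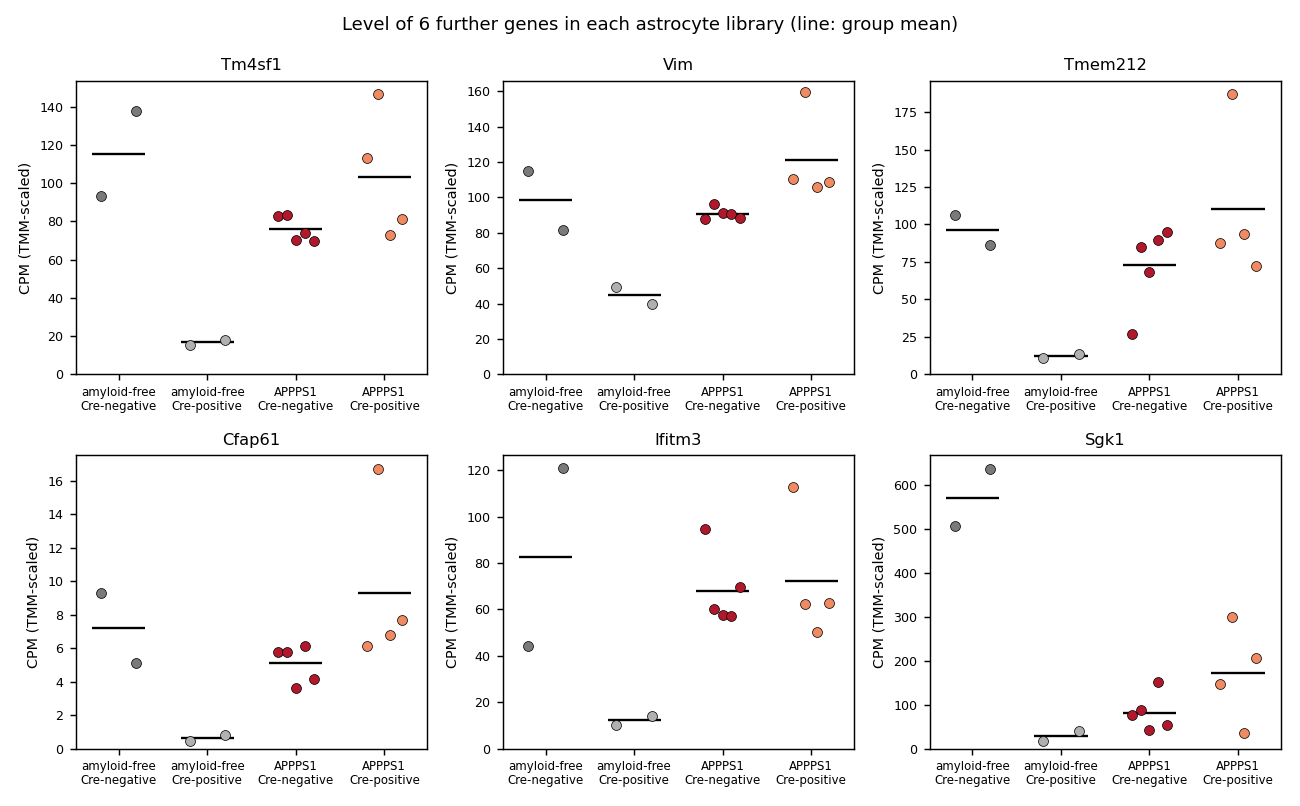
Level in CPM (vertical axes, from 0) of Tm4sf1, Vim, Tmem212, Cfap61, Ifitm3 and Sgk1 in each astrocyte library, by amyloid and Cre group, with points for mice and lines for group means. The amyloid-free Cre-positive mice 26 and 22 are low in each gene (18.2 and 15.2 CPM for Tm4sf1), and the amyloid-free Cre-negative mice are high in Sgk1 (506 and 637 CPM).

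The difference between the Cre states was tested directly. In 31 genes the amyloid effect differed, with a more positive change in Cre-positive mice in 28 (0.14%) and a less positive one in 3 (0.015%). Vim differed by 1.56 (adjusted p = 0.0364), Tm4sf1 by 3.24 (adjusted p = 0.00807) and Sgk1 by 5.35 (adjusted p = 0.04995) on the log2 scale. Cfap61, of the motile cilium, differed by 4.34, with 6.12 to 16.7 CPM in APPPS1 Cre-positive mice, 3.62 to 6.14 CPM in APPPS1 Cre-negative mice, and 9.31, 5.13, 0.828 and 0.4662 CPM in mice 465, 759, 26 and 22. Cd24a, a surface glycoprotein that ependyma expresses, differed by 3.82, and Ctsh, a lysosomal cathepsin, by 2.86. Kcnmb1, a subunit of calcium-activated potassium channels, differed by 3.62, St3gal6, a sialyltransferase, by 2.64, Pcp4l1 by 3.09, and Ppp1r32, a gene of ciliated cells, by 3.63. In each of these 4 genes mice 26 and 22 were the lowest of all 13 libraries. In the other direction Sned1 differed by -1.71. The astrocyte gene Aldh1l1, whose promoter drives Cre, had log2 changes of 0.47 and -0.56, and its difference of -1.03 had an adjusted p of 0.0513. Leaving out mouse 759, 26 or 22 in turn gave 0 genes with a difference each time, with 1294, 1628 and 1659 at an unadjusted p under 0.05. Without mouse 469, 779, 447, 475 or 443 it was 1, 1, 3, 1 or 2, without mouse 465 it was 18, and without mouse 460 or 439 it was 65 or 92. With mouse 459 kept or with the ependymal markers in the fit the count was also 0, with 930 and 1316 at that threshold.

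**Figure D5:**
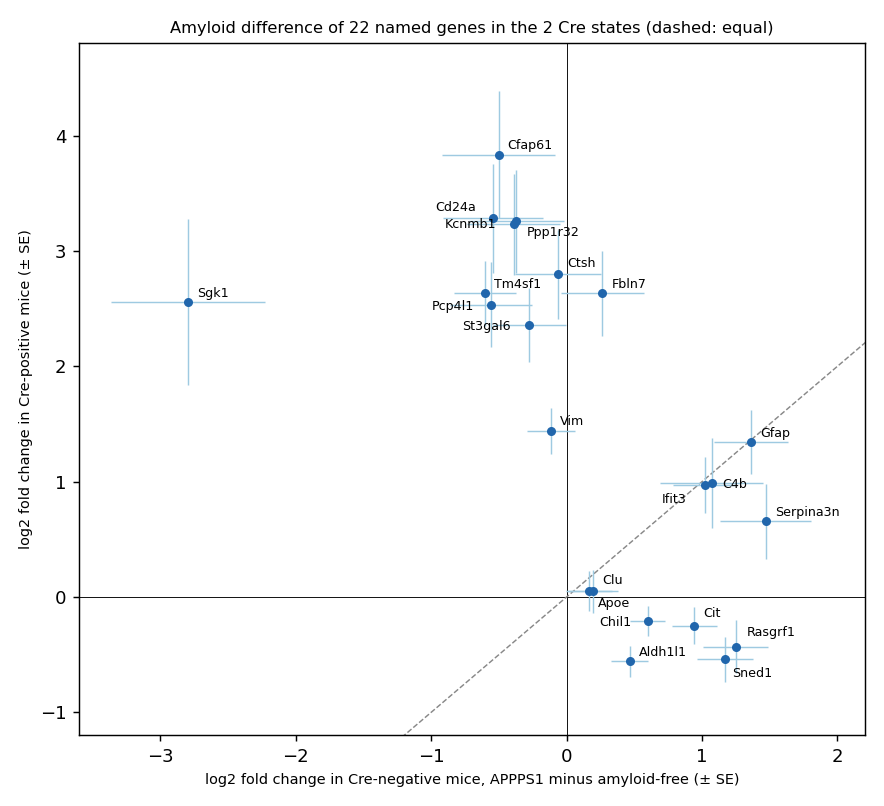
Log2 change, APPPS1 minus amyloid-free, of 22 genes in Cre-negative mice (horizontal axis) and Cre-positive mice (vertical axis), with bars of 1 SE. Gfap (1.36 and 1.34) and Ifit3 (1.02 and 0.97) lie near the diagonal of equal change, while Tm4sf1 (-0.60 and 2.63) and Sgk1 (-2.80 and 2.56) lie far above it.

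Cell cycle genes were sparse and uneven. Of 28 members 23 had an averaged log2 change above 0, with a median of 1.15, and 12 were higher at an unadjusted p under 0.05, against 5.2% of all genes. In Cre-negative mice (list median 0.27) 1 of 28 was higher at that threshold, against 2.44% of all genes. In Cre-positive mice (list median 1.34) 12 of 28 were, against 7.4% of all genes, with mice 26 and 22 on the other side. Mki67, a nuclear protein of dividing cells, ran from 0 through 0.948 to 4.81 CPM in APPPS1 mice and was 0.0480, 0.101, 0 and 0 CPM in mice 465, 759, 26 and 22. Of the APPPS1 Cre-negative libraries 2 were at 0 as well, so the groups overlapped. Top2a, the DNA topoisomerase of replicating cells, ran from 0.453 to 9.01 CPM against 0 to 1.33 CPM. In the Cre-positive mice Mki67 was at least 74.5-fold higher, on a floor of 3 counts over mice 26 and 22. The reads carry no molecular identifiers, so such floors cover counting error only. Microglial markers, of which the sort should hold few, had a mean level from -0.29 to 2.46 log2 CPM in APPPS1 mice and 0.22, 0.19, 1.61 and 0.54 log2 CPM in mice 465, 759, 26 and 22. Tyrobp, a microglial signalling adaptor, ran from 0.782 through 1.76 to 30.2 CPM against 0.264 to 1.54 CPM. The highest value came from the Cre-negative mouse 774, also the highest in the mean of microglial markers. The part of microglial RNA in the immune lists was not tested.

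The same mice gave microglia, sorted with an antibody against CD11b, and the amyloid effect was compared between the cell types in 1 fit of 26 libraries. It differed in 325 of 21612 genes (1.5%), and in 80 when mouse was kept as a block. Gfap was scarce in microglia, with 2.24 ± 0.63 CPM (SD, n = 9) against 0.754 ± 0.48 CPM (SD, n = 4). It rose there by log2 1.61 (adjusted p = 0.00226), and the astrocyte minus microglia difference of the log2 changes was -0.27 ± 0.38 (adjusted p = 0.845). In astrocytes of the same mice the means of Gfap were 193 and 75.3 CPM. The part of astrocyte RNA in the microglial Gfap values was not tested. Ifit3 stood at 79.1 ± 25.9 CPM (SD, n = 9) and 36.3 ± 5.91 CPM (SD, n = 4) in microglia. It rose there by log2 1.13 (adjusted p = 0.00573), and the astrocyte minus microglia difference was -0.14 ± 0.32 (adjusted p = 0.965). Neither p shows that the effects are equal.

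For the lipoprotein genes Apoe and Clu the amyloid effect differed between the cell types, but neither passed with mouse as a block. Mouse Apoe reads, in mice whose Apoe was replaced by human APOE4, were 199 ± 116 CPM (SD, n = 9) in APPPS1 microglia and 43.7 ± 10.2 CPM (SD, n = 4) in amyloid-free microglia. In astrocytes mouse Apoe was 391 ± 58.4 CPM (SD, n = 9) and 358 ± 55.1 CPM (SD, n = 4). The astrocyte log2 change of 0.11 was lower than the microglial 2.18 by -2.07 ± 0.48 (adjusted p = 0.0283, and 0.125 with the block). Clu, the astrocyte lipoprotein clusterin, fell in microglia by log2 -2.54 from a low level and had 0.12 in astrocytes, a difference of 2.66 (adjusted p = 0.0118, and 0.057 with the block). Other genes of the astrocyte lists fell in the same microglia libraries with edgeR: Aqp4 by log2 -1.93 (adjusted p = 0.00877), Fxyd1 by -2.73 (0.00133), Id4 by -2.74 (0.0215) and Cpe by -1.46 (0.0165). Not all members did: Gfap rose by log2 1.61 (adjusted p = 0.00226) and Mt1 by 0.73 (0.00955), while Aldh1l1 had -0.01. The part of astrocyte RNA in the microglial values of Clu and of these other genes was not tested. The lysosomal proteases Ctsb and Ctsd had log2 changes of 1.46 and 1.72 in microglia against 0.06 and 0.11 in astrocytes, with differences of -1.40 and -1.61 (adjusted p = 0.00961 and 0.0098, and 0.057 and 0.0537 with the block). Tm4sf1 differed by 2.89 with an adjusted p of 0.0111, and of 0.0276 with the block. Its averaged astrocyte log2 change of 1.01 combined -0.60 in Cre-negative and 2.63 in Cre-positive mice. The amyloid-free Cre-positive astrocytes had 15.2 and 18.2 CPM, and the amyloid-free Cre-negative ones 93.0 and 138 CPM. In microglia Tm4sf1 was scarce, with 1.55 ± 1.16 CPM (SD, n = 9) in APPPS1 and 8.33 ± 7.99 CPM (SD, n = 4) in amyloid-free mice. The part of other cells' RNA in the microglial Tm4sf1 values was not tested.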

How the data were processed

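The values are raw counts per gene as the authors deposited them. Per the submitters' processing notes, the tools were bcl2fastq, STAR and, from Subread, featureCounts, with the builds GRCm38 and GRCh38. The libraries were made with a SMARTer kit. Counting settings and strand use are not given in the sources used here. Reads of a gene and of an overlapping or antisense neighbour therefore cannot be told apart. The table had 95966 rows. The 258 gene IDs on more than 1 row had equal values on their rows and were kept once each. This left 40481 mouse and 55093 human genes, the latter with 0.106 to 0.237% of the counts of the 13 libraries. Positions came from GENCODE M21 and promoters from RefSeq.

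Mouse genes were filtered by group, scaled by TMM and tested with edgeR 4.0.16 (R 4.3.3, quasi-likelihood, 1 term per amyloid and Cre group, the averaged effect weighting both Cre states equally), with Benjamini-Hochberg adjustment over all genes tested. Alternatives used DESeq2 1.42.0, limma 3.58.1 and sva 3.50.0. The fits were run on simulated data with a set amyloid effect in some genes. The simulation held no Cre effect and no difference between mice in other cells' RNA, so it does not cover these. The same mouse gave both sorts, and the deviations of its 2 libraries from their group means correlated between -0.04 and 0.08. The labels give no litter, cohort or date.

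The comparison, the 38 gene lists and the rule for naming genes were chosen with earlier results of these data known. The rule takes up to 12 genes per direction that passed, or the 6 of lowest p, up to 6 members of a list that passed or 3 where none did, and 7 reactive and lipid genes. Members named beyond it, and the motile cilium group, were chosen after their values were seen. A few genes that the rules would name are not reported here.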

Additional observations from a re-analysis of the deposited data

Results flagged for a closer look

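The amyloid effect differed between the Cre states in 31 genes. As differences of log2 changes, Cre-positive minus Cre-negative, the named ones among them had 1.56 for Vim, 3.24 for Tm4sf1, -1.71 for Sned1, 5.35 for Sgk1, 3.62 for Kcnmb1, 2.64 for St3gal6, 3.63 for Ppp1r32, 2.86 for Ctsh, 3.09 for Pcp4l1, 3.82 for Cd24a and 4.34 for Cfap61. The fitted values of 9.94 for Oas1a and 10.87 for Pmaip1 rest on groups at 0 and are no sizes. In most of these genes the pair of amyloid-free Cre-positive mice, 26 and 22, stood apart from all other libraries.

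Single mice far from the rest of their group were looked for in 126 groups of 4 or 5 values, of which 15 were found, where chance gives about 1 in 20. Mouse 458 was high among the APPPS1 Cre-positive mice in Vim (159.9 CPM), Ppp1r32 (49.7 CPM), Cfap61 (16.7 CPM) and the motile cilium genes (4.19 mean log2 CPM). Mouse 460 of that group was low in Pmaip1 (0.993 CPM) and, in mean log2 CPM, in JAK-STAT and NF-kB signalling (3.07), cell cycle (1.42) and leukocyte markers (-3.22). Also in mean log2 CPM, mouse 443 was high in fatty acid metabolism (7.57) and the unfolded protein response (5.82), and mouse 475 was low in ependymal markers (3.07). Among the Cre-negative APPPS1 mice, 447 was high in fatty acid metabolism (7.67) and low in amyloid processing (5.68), 439 was high in endothelial markers (6.33), and 774 was high in border macrophage markers (0.954). Beyond the 15, mouse 774 was the highest of all 13 libraries in leukocyte markers (1.17, others -3.54 to -1.48) and in microglial markers (2.46). The part of these cells in the immune lists was not tested.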

How the results depend on the processing

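Every count is limited by its groups: only 2 amyloid-free mice stand in each Cre state. For genes with 0 counts in a group, depth allows only a lower bound of the fold. The averaged log2 change of Gfap lay between 1.18 and 1.42 and that of Ifit3 between 0.87 and 1.15 in all 24 fits, but the number of called genes did not hold. Averaged over Cre, it was 1 without a filter on low counts, 1 with 1 surrogate variable, 1 with Cre ignored (Gfap each time), 254 with DESeq2, and 0 to 2 when 1 mouse was left out (Pltp and Ctsh without mouse 460, Gfap without mouse 458). In Cre-negative mice it was 19 with DESeq2 and 0 throughout when 1 mouse was left out. In Cre-positive mice, against 133, it was 236 without a filter, 850 with DESeq2, 253 with voom, 70 with the 2 groups alone, 48 with markers of other cells in the fit, 0 with ependyma markers in the fit, 0 with mouse 459 kept, and 0 to 277 when 1 mouse was left out. For the difference between Cre states, against 31, it was 103 without a filter, 577 with DESeq2, 9 with voom, 1 with markers of other cells, 1 with 1 surrogate variable (Tm4sf1 in both), 0 with ependyma markers, 0 with mouse 459 kept, and 0 to 92 when 1 mouse was left out. The cause of these shifts was not tested. Scaling by DESeq2 size factors gave 137 and 30 for the last pair. With mouse as a replicate block, 80 genes in place of 325 differed in their amyloid effect between astrocytes and microglia.

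The human APOE difference in CPM of 93.4 ran from -7.73 (without mouse 22) to 195 when 1 mouse was left out, and that of human APP from 0.418 to 0.764. Among single genes, each of the 17 Cre-positive changes and 6 differences followed lost its call under at least 1 setting. Of 76 averaged changes followed, 33 passed under at least 1 setting and 32 turned in direction under at least 1, and each of the 6 Cre-negative changes passed under at least 1. The ependyma covariate and the fit without mice 22 and 26 were chosen after seeing the data. Without mice 22 and 26 no amyloid-free Cre-positive mouse remains, so the Cre-negative mice alone inform the effect and the values nearly repeat that contrast: the log2 change was -0.13 for Vim, 0.46 for Aldh1l1, -0.61 for Tm4sf1, -0.55 for Oas1a, -0.084 for Pmaip1, -0.40 for Kcnmb1, -0.29 for St3gal6, -0.38 for Ppp1r32, -0.078 for Ctsh, -0.57 for Pcp4l1, -0.55 for Cd24a, -0.51 for Cfap61, 0.14 for Acsbg1, -0.18 for Anxa2, -0.30 for Ifitm3, 0.033 for Srebf2, 0.026 for Ide, -0.78 for Bmp4, -0.84 for Cdkn1a, -0.91 for Plin4, -0.46 for Olfml3, -0.19 for Ly6c1, -0.15 for Rarres2, -0.41 for Tmem212, -0.31 for Folr1, -0.31 for Dynlrb2 and -0.28 for Ccdc153. With mouse 459 kept it was -0.056 for Clu, 0.77 for Sgk1, 0.069 for Picalm and 0.28 for Sall1. Aldh1l1 was 0.0046 with ependyma markers, 0.033 without mouse 465 and 0.0028 without mouse 26. Apoe was -0.0074 without mouse 759, and Sgk1 was 0.048 without mouse 460, 0.23 without mouse 26 and -0.35 without mouse 22.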

Other observations

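Mitochondrially encoded genes and metabolic lists were not described above. Of the 13 mitochondrially encoded genes, 12 had an averaged log2 change above 0, with a median of 0.25, and the median was 0.01 in Cre-negative and 0.55 in Cre-positive mice. Their mean level ran from 8.24 to 9.02 log2 CPM in APPPS1 mice and was 8.72, 8.50, 8.12 and 7.73 log2 CPM in mice 465, 759, 26 and 22, so mice 26 and 22 were again the lowest. The respiratory chain genes encoded in the nucleus had an averaged median of -0.01. In Cre-positive mice the medians were -0.21 for fatty acid synthesis and oxidation, with 22 of 26 members below 0, and -0.15 for glycolysis, lactate and hypoxia, with 21 of 27 below 0. In Cre-negative mice both medians were above 0, at 0.08 and 0.09. With edgeR none of these members passed.

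Growth factor and BMP signalling genes had an averaged median of -0.02, yet some targets and receptors lay apart. Id1, a helix-loop-helix inhibitor induced by BMPs, ran from 39.3 to 72.3 CPM in APPPS1 mice and from 29.6 to 45.3 CPM in amyloid-free mice, with a log2 change of 0.63. Fgfr2, a fibroblast growth factor receptor, had -0.39, with -0.40 in Cre-negative and -0.38 in Cre-positive mice, and Igfbp2, a binding protein for insulin-like growth factors, had -0.51. Bmp4 rose in Cre-positive mice (adjusted p = 0.0488) from 0.0920 and 0.219 CPM in mice 26 and 22, while mouse 759 had 8.32 CPM, the highest of all 13.

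Apoc1 and Pltp, which code for a small apolipoprotein and for the phospholipid transfer protein, were the lipid transport genes of lowest p. Apoc1 ran from 57.7 to 84.0 CPM in APPPS1 Cre-positive mice and was 25.5 and 44.2 CPM in mice 26 and 22, with no overlap, while the Cre-negative mice ran from 10.7 to 23.04 CPM with amyloid and were 11.9 and 12.3 CPM without. Its averaged log2 change was 0.75 (adjusted p = 0.361). Pltp ran from 120 to 318 CPM in APPPS1 mice and was 144, 213, 62.2 and 47.4 CPM in mice 465, 759, 26 and 22. Pltp rose in Cre-positive mice by log2 2.07 (adjusted p = 0.0151), against 0.11 in Cre-negative mice.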
